A study of Mus musculus with 10 samples.

Results

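The Dlx homeobox family of the mouse, Dlx1 to Dlx6, was described by the level of 2 histone modifications at its promoters in the maturing retina. Members were the rows of the deposited table whose symbol, with case ignored and a trailing number dropped, was one of these names, which gave 7 of 25152 entries and 6 of 20038 gene symbols. Dlx5 had 2 entries with identical values and was counted once. The modifications, H3K4me2 and H3K27me3, were mapped by ChIP-Seq, the sequencing of DNA recovered with an antibody against each of them, in whole retinas of E17.5 (embryonic day) and of the postnatal days PN1, PN7 and PN15. At least 20 retinas were pooled for each stage, and each mark and stage had 1 library, so none of the differences below has a replicate to be set against and no p-value is given. The study's methods name C57BL/6j mice as wild type and E17.5 as the embryonic stage, and were followed, whereas the sample labels name the Pde6b (rd1/rd1) strain, which loses its rods, for every library and give the embryonic stage as E17. The labels and the methods also exchange the catalogue numbers of the 2 antibodies. The columns held values as their names say, with H3K27me3 high at Hox genes (median 702 at E17.5, where their median H3K4me2 was 13) and H3K4me2 rising from 20 to 158 at the photoreceptor gene Crx. Of the 10 samples of the series, the H3K4me2 library of rd1/rd1 retinas at PN30 and the anti-GFP control at PN56 have no column in the table and were not analysed here.

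Dlx genes encode homeodomain transcription factors related to Distal-less of the fruit fly, and lie in the genome as pairs whose partners are transcribed toward each other. Dlx1 and Dlx2 act in retinal progenitors and in the ganglion, amacrine and horizontal cells derived from them, and in the forebrain they direct the making of GABA-releasing interneurons. Dlx5 and Dlx6 act in the same interneurons and in the jaw, limb and inner ear, Dlx3 in placenta, tooth, hair and bone, and the placenta also uses Dlx4. H3K27me3 is laid down by Polycomb repressive complex 2 and marks repressed genes, often those of developmental regulators outside the tissues that use them. H3K4me2 is found at active and at poised promoters, and a promoter with both marks in a tissue may carry them in the same cells or in different ones.

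Dlx1 lies on chromosome 2 of the mm9 build at chr2:71366170-71372038 on the plus strand, and Dlx2 at chr2:71381466-71384811 on the minus strand. Dlx3 is at chr11:94981403-94986610 on the plus strand, and Dlx4 at chr11:95001770-95007577 on the minus strand. Dlx6 is at chr6:6813334-6818568 on the plus strand, and Dlx5 at chr6:6827805-6832085 on the minus strand. The start sites of the partners were 18.6 kb (Dlx1 and Dlx2), 26.2 kb (Dlx3 and Dlx4) and 18.8 kb (Dlx5 and Dlx6) apart, so that the windows of 2.5 kb to either side of the transcription start site (TSS), in which the reads were summed, did not overlap between partners. Other annotated transcripts start inside 3 of the windows. Dlx1as, on the other strand, starts 186 and 194 bp from the start of Dlx1, A730090H04Rik 1210 bp from that of Dlx4, and Dlx6os1 1686 bp from that of Dlx6. ChIP DNA has no strand, so the reads of these starts cannot be told apart from those of the Dlx genes.

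The windows of the family were dense in CpG, the dinucleotide whose clusters (CpG islands) are known to draw Polycomb complexes. The 6 windows of 5 kb held 196 (Dlx1), 237 (Dlx2), 209 (Dlx3), 143 (Dlx4), 152 (Dlx5) and 193 (Dlx6) CpG dinucleotides, against a median of 102 over 19240 protein-coding symbols. The median of the family, 194.5, was nearer to that of other developmental regulators, 163 over 38 Hox genes and 180 over 48 genes of the Nkx, Lhx, Irx, Pax and Gata families and the family of Six3. Dlx2 was the densest, at percentile 96.8 of these symbols, and Dlx4 the least dense, at percentile 74.7. The order of the members by CpG was not their order by H3K27me3, since Dlx4 had the most H3K27me3 of the family at E17.5 and PN1, and Dlx2 and Dlx3 had the least. Of the members, 2 had an entry among the RefSeq promoter sequences (GRCm38.p6), Dlx1 and Dlx2. The 250 bases before the start of Dlx2, the member with the densest window and the most H3K4me2 at 3 of 4 stages, are shown 5′ to 3′ on the minus strand as they stand in mm9 at chr2:71384812-71385061, with each CpG in capitals.
Dlx2: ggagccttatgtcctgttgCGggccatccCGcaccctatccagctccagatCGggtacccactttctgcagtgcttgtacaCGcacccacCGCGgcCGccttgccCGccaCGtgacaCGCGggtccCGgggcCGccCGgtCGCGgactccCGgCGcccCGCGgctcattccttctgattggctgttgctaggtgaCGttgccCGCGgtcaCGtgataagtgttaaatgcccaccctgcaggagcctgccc
The stretch held 24 CpG dinucleotides, and 12% of 32851 RefSeq promoters held at least as many in their 250 bases, with a median of 6. The letters TAATTA, a core often bound by homeodomain proteins, were searched on both strands (the motif reads the same on each) and were not in this stretch; 4.84% of the promoters held them.

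The values are normalized occupancies, that is, reads within 2.5 kb of the RefSeq TSS, which the authors scaled by the number of mapped reads and then rounded. All windows have the same length, so levels can be compared between genes. A 95% interval was computed by taking 1 unit as 1 read, and it covers counting error only. The background of each library was the 99th percentile of 1053 entries of olfactory receptor genes, which the retina does not use. In order of stage it was 33.5, 44.0, 40.5 and 41.5 for H3K27me3 and 6, 9, 1 and 9.48 for H3K4me2, and 17.1%, 15.4%, 15.9% and 13.8% of all symbols lay above it for H3K27me3, and 72.6%, 69.0%, 72.1% and 68.3% for H3K4me2. The tissue label was checked on a few genes of known retinal and other use. H3K4me2 at Nrl, a transcription factor of rods, was 35, 26, 24 and 116 in order of stage, and at the liver gene Alb it was 4, 4, 1 and 0. At the skin gene Krt5 it was 6, 8, 0 and 1. Not every gene of other tissues lacked the mark. H3K4me2 was 13, 18, 12 and 19 at the liver gene Apoa2 and 23, 21, 47 and 32 at the skin gene Lor, above background at all 4 stages.

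High H3K27me3 and moderate H3K4me2 were found at every member. In order of stage the median H3K27me3 of the 6 genes was 383, 585.5, 457.5 and 218, against 11, 10, 9 and 10 over all symbols, which put it between percentiles 98.4 and 99.3. The median H3K4me2 was 51.5, 32.5, 38 and 18.5, against 41, 27, 24 and 42 over all symbols, and its percentile was 60.9, 56.8, 69.6 and 37.7. The family thus stood near the top of all genes for H3K27me3 and near the middle for H3K4me2. All 6 members were above the background of both marks at all 4 stages, which held for 8.09% of all symbols. Because whole retinas were pooled, a change in the share of cells that carry a mark and a change in its amount per cell cannot be told apart.

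**Figure D1:**
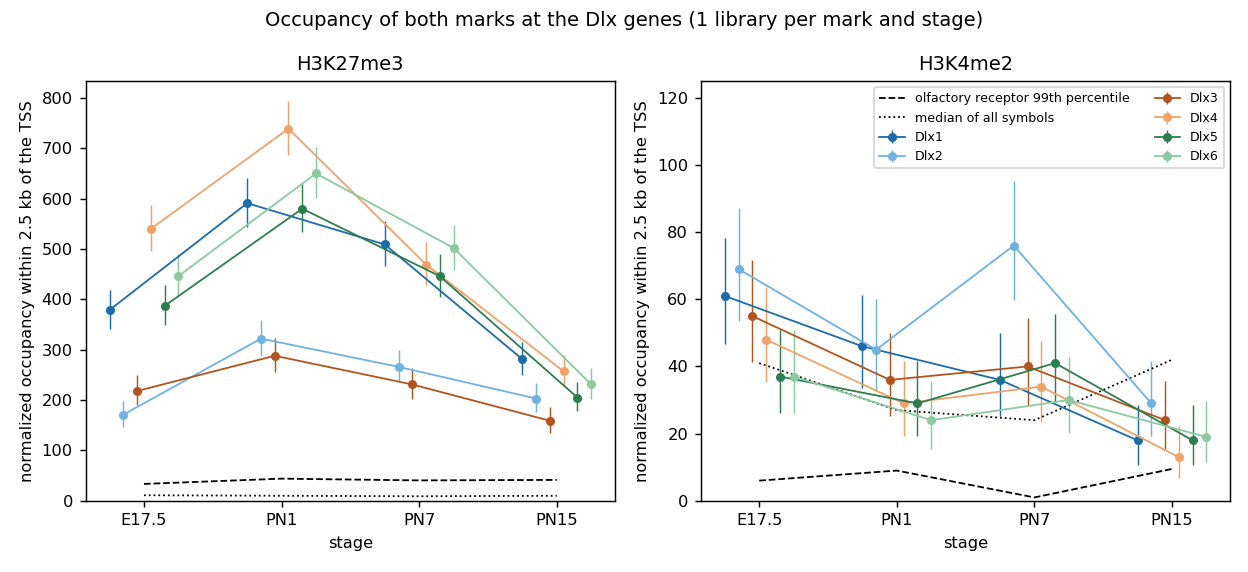
Normalized occupancy (vertical axis) of H3K27me3 (left) and H3K4me2 (right) at the 6 Dlx genes by stage (horizontal axis), with 1 library per mark and stage, points set side by side for clarity and bars for the exact Poisson 95% interval of counting error. Dashed lines give the olfactory receptor background and dotted lines the median of all symbols; H3K27me3 was highest at PN1 at all 6 members (at 3 with libraries rescaled to the same sum), and H3K4me2 lowest at PN15.

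Dlx4 had the most H3K27me3 of the family at E17.5 and PN1, with 540 and 739, followed by 469 at PN7 and 257 at PN15. For Dlx6 the values were 446, 650, 502 and 231. At its partner Dlx5 they were 387, 580, 446 and 205. These 3 genes were higher at PN1 than at E17.5 and ended below their level at E17.5. Dlx1, with 379, 591, 509 and 281, began close to Dlx5 and kept more of the mark, so that it ranked first in the family at PN7 and PN15. Dlx2 was lowest at E17.5, with 171, and then had 322, 266 and 203. Dlx3, a gene of skin appendages and bone, had 218, 288, 231 and 159 and was lowest from PN1 on, though within counting error of Dlx2 at PN1 and PN7. At E17.5 each member differed beyond counting error from the next in the order but for Dlx5 and Dlx1. The order had 2 tiers at PN1 and PN7, with Dlx1, Dlx4, Dlx5 and Dlx6 above and Dlx2 and Dlx3 below. At PN1 the lowest of the upper tier, Dlx5, exceeded Dlx2 by 1.80-fold (95% interval 1.57 to 2.07), and at PN7 by 1.68-fold (1.44 to 1.96). Dlx1 and Dlx6 at PN1, and neighbours among all 4 upper genes at PN7, did not differ beyond counting error. By PN15 the tiers had closed, and Dlx1, Dlx4, Dlx6, Dlx5 and Dlx2 formed a row of neighbours with no step beyond counting error, above Dlx3. The ratio of the highest to the lowest member narrowed from 3.16 at E17.5 to 2.57, 2.20 and 1.77.

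H3K4me2 at Dlx1 was, as deposited, lower at each stage than at the one before, with 61, 46, 36 and 18. Dlx2 had 69, 45, 76 and 29. For Dlx3 the values were 55, 36, 40 and 24. Neighbours in the order of H3K4me2 differed within counting error at all stages with 1 exception, Dlx2 at PN7, which exceeded Dlx5 by 1.85-fold (95% interval from 1.25). Dlx4 had 48, 29, 34 and 13. Dlx5 had 37, 29, 41 and 18, and Dlx6 37, 24, 30 and 19. All 6 were lowest at PN15, a pattern found in 6.26% of all symbols, and stayed so when the libraries of the mark were rescaled to the same median (19.1% of symbols) or the same sum (22.0%).

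Every member had more H3K27me3 at PN1 than at E17.5, an interval that spans birth. The ratio was 1.88 (95% interval 1.56 to 2.28) at Dlx2, 1.56 (1.37 to 1.78) at Dlx1, 1.5 (1.32 to 1.71) at Dlx5, 1.46 (1.29 to 1.65) at Dlx6, 1.37 (1.22 to 1.53) at Dlx4 and 1.32 (1.10 to 1.58) at Dlx3. As deposited, all 6 rises were beyond counting error while the median symbol did not change (log2 change 0). None reached 2-fold, the size used here as a call, defined as an absolute log2 change of at least 1 after adding 1 to both values; 5.76% of all symbols were higher and 8.27% lower by that size. With equal medians 1 member, Dlx2, was past 2-fold (6.81% of symbols higher). With equal sums the log2 rises were smaller, from 0.20 at Dlx3 and 0.25 at Dlx4 to 0.71 at Dlx2, and the median of all symbols fell by 0.17.

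As deposited, the mark then fell. From PN1 to PN7 the ratio was between 0.63 at Dlx4 and 0.86 at Dlx1, below 1 beyond counting error at all 6, with none past 2-fold (13.5% of symbols lower by that size); with libraries rescaled to the same sum the values of Dlx1, Dlx2 and Dlx3 were instead higher at PN7, by 0.11, 0.051 and 0.0084 on the log2 scale. From PN7 to PN15 the fall was larger, with log2 changes of -1.12 at both Dlx5 and Dlx6, -0.87 at Dlx4, -0.85 at Dlx1, -0.54 at Dlx3 and -0.39 at Dlx2. Dlx5 and Dlx6, the pair of the jaw and of interneurons, were the 2 members past 2-fold (9.7% of symbols lower by that size), against 4 with equal medians (12.2% of symbols) and 0 with equal sums (2.40%), where Dlx2 was higher by 0.048. As deposited, all 6 members were highest at PN1 and then fell at each step, as did 16.8% of all symbols, while the pattern held at 6 with equal medians (19.6% of symbols) and at 3 with equal sums (6.10%).

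Over the whole course, from E17.5 to PN15, Dlx2 was, as deposited, the 1 member whose H3K27me3 was not lower. Its value was 203 at PN15 against 171 at E17.5, a ratio of 1.19 whose 95% interval, 0.964 to 1.46, included 1. Dlx4 fell by 1.07 on the log2 scale, the 1 member lower by 2-fold (16.1% of symbols), and by less than 2-fold with either rescaling. Dlx6 fell by 0.95, Dlx5 by 0.91, Dlx3 by 0.45 and Dlx1 by 0.43, all beyond counting error; with equal sums Dlx3 and Dlx1 were higher instead, by 0.10 and 0.13. For a comparison with genes rich in the mark, the 647 symbols with a mean H3K27me3 of at least 224 over the 4 libraries, the mean of the lowest member, were taken as a group, a limit chosen after the values were seen. The limit uses the same 4 libraries and tends to leave out genes that begin low and gain the mark, such as Pax6 with 4 at E17.5 and 178 at PN15.

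H3K4me2 was lower at PN15 than at E17.5 at every member. The log2 change was -1.81 at Dlx4, -1.71 at Dlx1, -1.22 at Dlx2, -1.16 at Dlx3, -1.0 at Dlx5 and -0.93 at Dlx6, with intervals of the ratio that stayed below 1 at all 6. Thus 5 of 6 were lower by at least 2-fold, against 11.7% of symbols lower and 7.84% higher by that size. Dlx5 lay at the limit, and the count was 4 with a pseudocount of 5, 5 with equal medians and 6 with equal sums. The median change of all symbols was 0.13 as deposited and -0.08 with equal sums. From PN7, whose H3K4me2 library stood apart in that 20.1% of symbols had a value of 0 in it, to PN15 the log2 change was -1.36 at Dlx2, -1.32 at Dlx4, -1.14 at Dlx5, -0.96 at Dlx1, -0.71 at Dlx3 and -0.63 at Dlx6, while over all symbols the median rose by 1.0. Of the members 3 were past 2-fold, against 2.05% of symbols. With equal medians all 6 were, against 9.26% of symbols, and with equal sums also 6, against 8.91%, and the median of all symbols then rose by 0.26 and 0.28. The fall from E17.5 to PN1, between 0.34 and 0.71 on the log2 scale, was close to the median of all symbols, which fell by 0.42; with either rescaling 2 members were higher at PN1 instead. No member was past 2-fold over that step, against 6.79% of symbols lower and 8.23% higher; with equal medians these shares were 0.793% and 13.6% and the median of all symbols rose by 0.16, and with equal sums they were 1.19% and 12.1% and it rose by 0.07. Over the same course H3K4me2 rose at rod genes, which the retina adds in large number after birth, from 20 to 158 at Crx and from 35 to 116 at Nrl. The part of the changing cell make-up in the values of the Dlx genes was not tested.

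Dlx2 was also the member whose H3K4me2 rose between PN1 and PN7 beyond counting error. Its value went from 45 to 76, a ratio of 1.69 (95% interval 1.15 to 2.5), which took it from percentile 76.4 to percentile 94.7 of all symbols. Then it dropped to 29, at percentile 43.0. The other 5 members had ratios between 0.78 (Dlx1) and 1.41 (Dlx5) over that step, with intervals that included 1. No member was higher by 2-fold, as 4.09% of symbols were, and the median of all symbols fell by 0.50. This rests on the same PN7 library of H3K4me2, and the other libraries of the mark had a value of 0 at 0.419% to 2.78% of symbols.

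**Figure D2:**
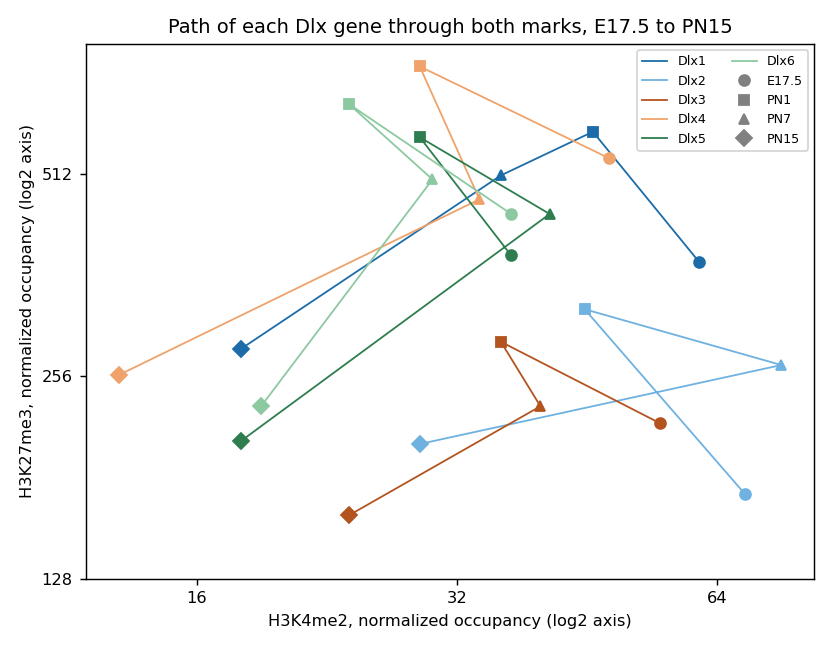
H3K27me3 (vertical, log2 axis) against H3K4me2 (horizontal, log2 axis) in normalized occupancy for each Dlx gene, with lines joining the stages in order and symbols marking the stage, 1 library each. The paths rose to PN1 and ended at PN15 at the lowest H3K4me2 of each gene, and the PN7 point of Dlx2, at 76 for H3K4me2, lay farthest to the right.

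The value of H3K27me3 was higher than that of H3K4me2 at every member and stage. At Dlx6 the ratio of H3K27me3 to H3K4me2 was 12.1, 27.1, 16.7 and 12.2 in order of stage. At Dlx4 it was 11.3, 25.5, 13.8 and 19.8, and at Dlx1, where it rose at each step, 6.21, 12.8, 14.1 and 15.6. Dlx2 had the lowest ratio at all stages but the last, with 2.48, 7.16, 3.50 and 7.00, and Dlx3, with 3.96, 8.0, 5.78 and 6.62, was lowest at PN15. The 2 marks come from different antibodies, so the ratio compares genes and not amounts of the modifications. The median of log2((H3K27me3 + 1)/(H3K4me2 + 1)) over the family was 2.98, 3.97, 3.58 and 3.49 from E17.5 to PN15, whereas over all symbols it was below 0 at each stage, between -0.92 and -0.19. Among all symbols the members ran from percentile 68.4 (Dlx2 at PN7) to percentile 98.3 (Dlx6 at PN1) of this measure. Dlx2 was at percentile 74.5 at E17.5, and Dlx3 at percentile 77.2 at PN7.

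The 3 gene pairs were then compared, by the Euclidean distance between the 8 log2(value + 1) values of 2 genes. Dlx5 and Dlx6 lay 0.63 apart, the smallest distance of the 15 pairs of members (the 4th smallest with the values as deposited and the 2nd by 1 minus the Pearson correlation). Of the other 20037 symbols, Dlx6 was the 2nd nearest to Dlx5, and Dlx5 the 8th nearest to Dlx6. Their H3K27me3 differed by 1.12- to 1.15-fold, with more at Dlx6, within counting error at PN7 and PN15 and at its limit at E17.5 and PN1, and their H3K4me2 was within counting error at all 4 stages. The partners of the other pairs were less alike. Dlx1 and Dlx2 lay 2.18 apart and Dlx3 and Dlx4 2.44 apart, more than the median of 1.53 over the 12 pairs of members that are not partners, which ran from 0.80 to 2.84. Of the other 20037 symbols, Dlx2 was number 215 in order of distance from Dlx1, and Dlx1 number 306 from Dlx2. Dlx4 was number 699 from Dlx3, and Dlx3 number 301 from Dlx4.

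Dlx1 had more H3K27me3 than Dlx2 at every stage, by 2.22-fold (95% interval 1.85 to 2.67) at E17.5, 1.84-fold (1.60 to 2.11) at PN1, 1.91-fold (1.65 to 2.23) at PN7 and 1.38-fold (1.15 to 1.67) at PN15. For H3K4me2 the pair differed beyond counting error at PN7 alone, where Dlx2 had 2.11-fold more (1.40 to 3.23). Between Dlx4 and Dlx3 the gap in H3K27me3 was 2.48-fold (2.11 to 2.91), 2.57-fold (2.24 to 2.95), 2.03-fold (1.73 to 2.39) and 1.62-fold (1.32 to 1.98) in order of stage, with more at Dlx4. H3K4me2 was higher at Dlx3 than at Dlx4 in all 4 libraries, by 1.15- to 1.85-fold, and each of these differences was within counting error. In both pairs the gap in H3K27me3 was thus smaller at PN15 than at E17.5.

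Only 2 of 6 members, Dlx5 and Dlx6, had their partner as the nearest member. Dlx2 and Dlx3 were nearest to each other (1.19), Dlx4 was nearest to Dlx6 (0.80) and Dlx1 to Dlx4 (1.06). The answer depended on the measure. By distances of the values as deposited, which weigh H3K27me3 most, no member was nearest to its partner. By 1 minus the Pearson correlation, which drops the level, 4 were, and Dlx3 and Dlx4 were the closest of all 15 pairs. The correlation over 8 libraries carries the offset between the 2 marks that all members share. The courses of Dlx3 and Dlx4 differed in size, with a log2 change of H3K27me3 from E17.5 to PN15 of -0.45 and -1.07 as deposited.

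**Figure D3:**
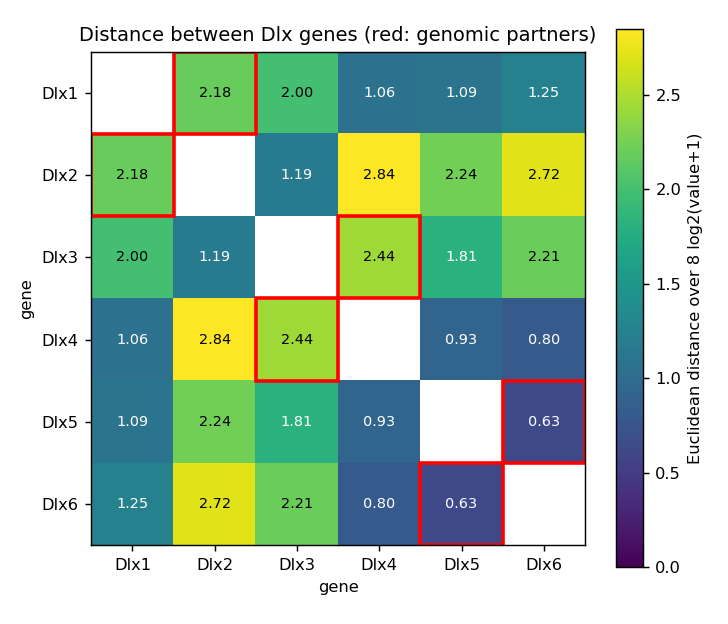
Euclidean distance between each 2 Dlx genes over the 8 log2(value + 1) values (4 stages, 2 marks), with the genes on both axes, the colour scale starting at 0 and genomic partners framed in red. Dlx5 and Dlx6 were the closest pair at 0.63, while the frames of Dlx1 with Dlx2 and of Dlx3 with Dlx4 hold 2.18 and 2.44.

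The genes with values most like those of a member were looked for over the same 8 libraries, with no statement on shared control. Dlx6 had the closest likeness, to Sim1, a transcription factor of the hypothalamus, at a distance of 0.29; its H3K27me3 was 459, 628, 497 and 239, and its H3K4me2 37, 24, 27 and 16. Next to Dlx6 came Nkx6-2 (0.47). Dlx4 was nearest to En1, a homeobox gene of midbrain and limb (0.40), then to Pax2 and Hand2 (both 0.48). Dlx3 was nearest to the potassium channel gene Kcnj8 (0.43), then to Cxcl12 (0.49) and Nefl (0.65). For Dlx5 the nearest were Slc30a3 (0.56), Dlx6 (0.63) and Foxc1 (0.64). Dlx1 was nearest to Otx1 (0.52), with H3K27me3 of 349, 590, 447 and 260, then to Gad1, which makes GABA (0.63), and to Foxa1 (0.64). Dlx2 had no neighbour as close as the others had, with Fhdc1 at 0.73, Kcna1 at 0.77 and Pou3f3 at 0.83. Fhdc1 shared its H3K4me2 of 76 at PN7, with 50 at PN1 and 35 at PN15. With the members themselves left out, nearest to the mean of the 6 members were Tcfap2c (0.39), Slc30a3 (0.65), Gad1 (0.65), Prdm16 (0.67) and Sp8 (0.69). Dlx5 was the member closest to that mean (0.62) and Dlx2 the farthest from it (1.74).

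Genes that act with the family were taken from 4 lists. Of 12 genes known as targets or as genes downstream of Dlx1 and Dlx2, such as the GABA genes and the ganglion cell factor Pou4f2, 5 were lower by 2-fold in H3K4me2 from E17.5 to PN15 and 1 was higher, with a median log2 change of -0.85. In H3K27me3 4 were lower (2 with equal medians of the libraries) and 0 higher, with a median of -0.82. Over all symbols 11.7% were lower and 7.84% higher by that size in H3K4me2, and 16.1% and 12.1% in H3K27me3, where the balance turned to 5.48% lower and 26.3% higher with equal sums. The counts of the 4 lists were not computed with equal sums. Under that scaling the number of Hox genes lower by 2-fold in H3K27me3 went from 27 to 0. At Gad1 H3K27me3 was 457, 570, 450 and 239 with H3K4me2 at 54, 37, 36 and 23, and Slc32a1, the vesicle transporter of GABA, had 481, 566, 408 and 188 and 39, 37, 25 and 25. Gad2, which makes GABA as Gad1 does, was unlike them, with 52, 61, 41 and 74 for H3K27me3 and 100, 70, 92 and 55 for H3K4me2. Pou4f2 had H3K27me3 of 365, 507, 412 and 223, and H3K4me2 that went from 64 to 20. The photoreceptor factors Crx and Otx2, in the same list, took another course. H3K4me2 at Crx went from 20 to 158, with H3K27me3 between 4 and 8 at all stages, and at Otx2 H3K27me3 went from 212 to 46 as H3K4me2 went from 73 to 140.

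Of 12 regulators that act before the family, 6 were lower by 2-fold in H3K4me2 (11.7% of all symbols) and 0 higher (7.84%), with a median log2 change of -1.08, while in H3K27me3 4 were lower (16.1%) and 6 higher (12.1%), with a median of 1.11. With equal medians of the libraries 2 were lower and 6 higher in H3K27me3, against 11.7% and 13.5% of all symbols. This list thus held both directions. Atoh7, which progenitors need to make ganglion cells, had H3K27me3 of 97, 120, 66 and 24. Among 12 other factors of ganglion, amacrine and horizontal cells, 5 were lower in H3K4me2 (11.7% of all symbols) and 4 in H3K27me3 (16.1%), with 0 higher in either (7.84% and 12.1%) and medians of -0.79 and -0.70. With equal medians of the libraries 1 was lower and 1 higher in H3K27me3, against 11.7% and 13.5% of all symbols. Counts with equal sums were computed neither for these factors nor for the regulators. Isl1, one of the factors, had 316, 439, 372 and 144 for H3K27me3 and 44, 31, 32 and 15 for H3K4me2.

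A list of 16 genes of skeleton, skin and placenta, the tissues of Dlx3, Dlx4, Dlx5 and Dlx6 outside the nervous system, had 9 members lower by 2-fold in H3K4me2 (11.7% of all symbols) and 9 in H3K27me3 (16.1%), 0 higher in either, and medians of -1.38 and -1.10. With equal medians of the libraries 9 were lower in H3K4me2 (9.62% of all symbols) and 8 in H3K27me3 (11.7%). Counts with equal sums were not computed for this list. Msx1 had H3K27me3 of 473, 689, 510 and 230, Msx2 512, 637, 568 and 256, and Runx2, the master regulator of bone cells, 258, 354, 284 and 140. Not all of the list carried the mark, since H3K27me3 was below background at Trp63, a gene of skin (9, 7, 5 and 7), and at Gcm1, a gene of placenta (9, 8, 10 and 9). At Edn1 it was above background at all 4 stages, with 65, 92, 140 and 88. Msx1 was close to Dlx6 in H3K27me3 at each stage, whereas its H3K4me2 was 62, 31, 56 and 21 against 37, 24, 30 and 19 at Dlx6. Over all symbols the median change was 0.13 for H3K4me2 and 0 for H3K27me3. Both marks were above background at all 4 stages in 4 of the 12 upstream regulators, in 10 of the 12 targets, in 10 of the 12 factors of retinal cell types and in 11 of the 16 genes of other tissues, against all 6 Dlx genes and 8.09% of all symbols.

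Beside other families of developmental regulators, Dlx genes had a lower median H3K27me3 and a higher median H3K4me2 than Hox genes. The median H3K27me3 of 39 Hox genes was 702, 952, 654 and 318, and their median H3K4me2 13, 9, 6 and 5. The ranges of H3K4me2 in the Dlx and the Hox genes were 37 to 69 and 3 to 32 at E17.5, 24 to 46 and 2 to 24 at PN1, 30 to 76 and 1 to 24 at PN7, and 13 to 29 and 0 to 18 at PN15, so that they met at PN1 and overlapped at PN15. Both marks were above background at all stages in 4 of 39 Hox genes, in 24 of 49 genes of other regulator families (Nkx, Lhx, Irx, Pax, Gata and the family of Six3), and in 454 of the 647 symbols rich in H3K27me3, against 8.09% of all symbols. The 49 regulators had levels close to those of the Dlx genes, with a median H3K27me3 of 403, 586, 450 and 210 and a median H3K4me2 of 44, 25, 27 and 17. In the values as deposited, the peak of H3K27me3 at PN1 with a fall at each later step was shared by all 39 Hox genes, by 37 of the 49 regulators and by 92.4% of the symbols rich in the mark, so many other genes had it. As deposited, H3K4me2 lowest at PN15 was found in 22 of 39 Hox genes, in 29 of 49 regulators and in 38.6% of the symbols rich in H3K27me3, against 6.26% of all symbols. Most of the Hox genes were below the background of H3K4me2 at PN15, so their count rests on values near the floor.

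As deposited, the median log2 change of H3K27me3 from E17.5 to PN15 was -0.68 over the Dlx genes, -1.12 over the Hox genes, -0.98 over the 49 regulators and -1.23 over the symbols rich in H3K27me3. With equal sums these medians were -0.13, -0.56, -0.43 and -0.68, and that of all symbols was 0.48. For H3K4me2 the median as deposited was -1.19 over the Dlx genes, -1.0 over the 49 regulators and -0.62 over the symbols rich in H3K27me3, and no value is set beside them for the Hox genes, most of which were below the background of that mark at PN15. The number of genes lower by 2-fold in H3K27me3 as deposited was 1 of 6, 27 of 39, 24 of 49 and 489 of 647, against 16.1% of all symbols, so the share of the Dlx genes was near that of all symbols. With equal medians it was 0, 15, 16 and 396, against 11.7%, and with equal sums 0, 0, 0 and 112, against 5.48%. Of the 49 regulators 7 were higher by 2-fold as deposited. As deposited, the H3K27me3 value at PN15 was 74.1% of that at E17.5 at Dlx1, 119% at Dlx2 and 72.9% at Dlx3, and between 47.6% and 53.0% at Dlx4, Dlx5 and Dlx6, while with equal sums Dlx1 and Dlx3 were higher at PN15, by 0.13 and 0.10 on the log2 scale.

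**Figure D4:**
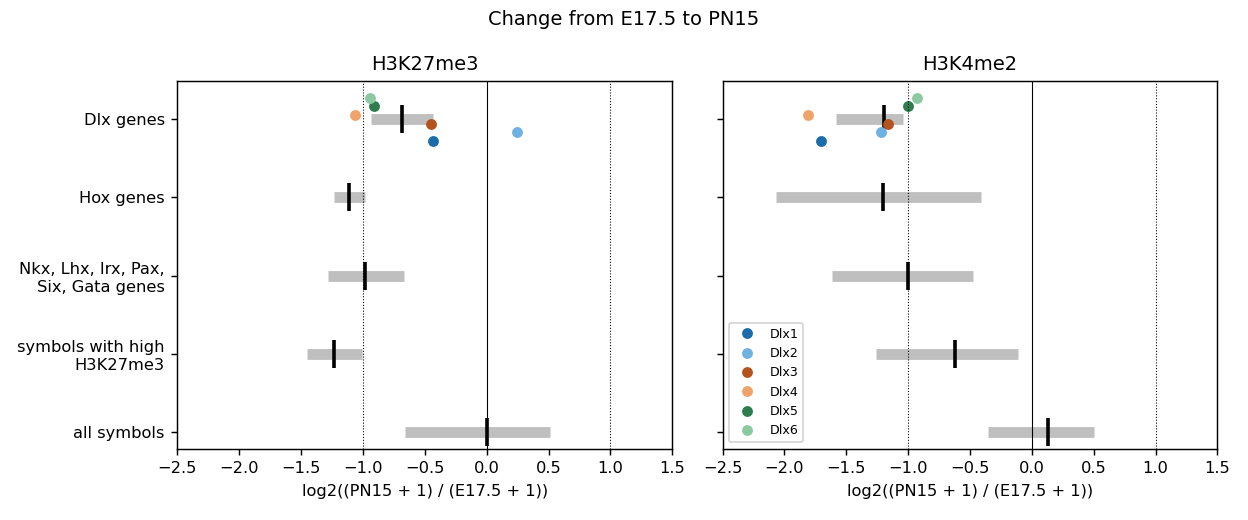
Change from E17.5 to PN15 in H3K27me3 (left) and H3K4me2 (right) as log2((PN15 + 1)/(E17.5 + 1)), with points for the Dlx genes and, for each group of genes, a grey bar from the lower to the upper quartile and a black line at the median; dotted lines mark 2-fold. Dlx2 is the point above 0 for H3K27me3 (with equal sums Dlx1 and Dlx3 are above 0 too), and all Dlx genes lie below 0 for H3K4me2.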

How the data were processed

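H3K4me2 and H3K27me3 ChIP-Seq of whole retinas was analysed at 4 stages, with 1 library for each. Bowtie 0.12.4 and mm9 were used by the authors to map the reads; those with several positions were left out, and the others were summed within 2.5 kb of each RefSeq TSS and normalized to the mapped reads. The deposited values are these scores, rounded by the authors to whole numbers, so the read number of a library is not given and no count model was used. Where a gene had several entries, that with the largest sum stood for it. The column name of H3K27me3 at PN7 holds a letter b, whose meaning is not given in the sources used here. Changes are log2 ratios with a pseudocount of 1, and intervals are exact Poisson or, for ratios, exact binomial 95% intervals that take 1 unit as 1 read. The members and all gene lists were chosen with earlier results of these data known. Genes were named by a rule (the members, their nearest symbols, and 12 genes of the lists), though not every gene of the rule is reported here, and other genes named were chosen after their values were seen. Genes and CpG came from the Gencode annotation of mm9. Alternatives were pseudocounts of 0.5 and 5, rescaled libraries, the mean over entries, a minimum sum of 10, a fold of 1.5 and other distances. Python 3.11.15, numpy 2.4.6, pandas 2.3.3, scipy 1.17.1 and matplotlib 3.10.9 were used, and the steps were tested on simulated data.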

Additional observations from a re-analysis of the deposited data

How the results depend on the processing

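Pseudocounts of 0.5 and 5 changed none of the counts of members past 2-fold but 1, the number lower in H3K4me2 from E17.5 to PN15. That number was 4 with a pseudocount of 5, against 5, since Dlx5 lay at the limit. The mean of several entries and the minimum sum could not change the counts of members. Dlx5 alone had several entries, with identical values, and the sums of all members were above the minimum in both marks. Rescaling the libraries changed some of the counts. The number of members lower in H3K4me2 from PN7 to PN15 was 6 with equal medians and 6 with equal sums, against 3. For H3K27me3 from PN7 to PN15 it was 4 and 0, against 2, and from E17.5 to PN15 it was 0 and 0, against 1. The number higher in H3K27me3 from E17.5 to PN1 was 1 with equal medians, against 0. With equal sums the log2 change of H3K27me3 turned to 0.11 (Dlx1), 0.051 (Dlx2) and 0.0084 (Dlx3) from PN1 to PN7, to 0.048 (Dlx2) from PN7 to PN15, and to 0.13 (Dlx1) and 0.10 (Dlx3) from E17.5 to PN15. Partners were the nearest member in 0 of 6 with the values as deposited and in 4 of 6 by correlation, against 2. With equal medians 2 upstream regulators, 2 targets and 1 factor of retinal cell types were lower in H3K27me3, against 4 in each list, and 1 of these factors was higher, against 0. At 1.5-fold, 9 targets were lower and 2 higher in H3K4me2, against 5 and 1, and 8 lower in H3K27me3, against 4; of the factors of retinal cell types 8 were lower in H3K4me2, against 5, and 7 lower and 1 higher in H3K27me3, against 4 and 0. Over all symbols 19.5% were lower and 21.1% higher by 1.5-fold in H3K4me2, and 28.7% and 23.6% in H3K27me3. The cause of these differences was not tested. No paired analysis was possible because each mark and stage had 1 library. The depth was not given, so a low H3K4me2 value, such as 13 at Dlx4, rests on an unknown number of reads.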
